A study of Mus musculus with 14 samples.

Results

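The genes described here are 10 antioxidant genes of the mouse: Gclc, Gclm, Prdx1, Prdx2, Prdx5, Prdx6, Srxn1, Gpx1, Gpx4 and Cat. They were chosen by name, as genes of the peroxiredoxin and glutathione systems and catalase, with earlier results of these data known. Each array probe was matched to them through its RefSeq accession. All 10 had at least 1 probe among the 24045 probes tested, which carry 11507 named genes. The probe with the highest mean signal stands for its gene, and in all 10 genes that probe was well above background on 14 of 14 arrays.

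RNA from white blood cells was hybridised to one-colour Agilent arrays, 1 array per mouse and 14 in all. The 8 SS mice had met a hostile social environment as pups and the 6 SI mice had been kept in isolation at that age, in both cases during the third week after birth. All 14 mice were given cocaine at 5 mg/kg, a dose below threshold, in a place preference test followed by extinction and withdrawal. Blood was drawn 24 hours after withdrawal. Mice without stress or without cocaine were not analysed here, so each comparison is SS against SI. There were 4 SS and 4 SI mice labelled male on slide 1, and 4 SS and 2 SI mice labelled female on slide 2. Strain and age at sampling are not given in the sources used here. Blood came from the sub-mandibular vein and red cells were lysed; the labels call the remaining cells PBMC (peripheral blood mononuclear cells) and name no gradient or sort.

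Cells remove hydrogen peroxide and lipid peroxides by several parallel routes. Glutathione, a small thiol, is made in a first, rate-limiting step by glutamate-cysteine ligase, whose catalytic subunit is encoded by Gclc and whose modifier subunit is encoded by Gclm. Glutathione peroxidases use it to reduce peroxides: Gpx1 acts mainly on hydrogen peroxide, and Gpx4 acts on oxidised phospholipids in membranes. Peroxiredoxins reduce peroxides with a reactive cysteine, which thioredoxin restores in Prdx1, Prdx2 and Prdx5 and glutathione restores in Prdx6; sulfiredoxin, encoded by Srxn1, repairs peroxiredoxins whose cysteine has been oxidised too far. Catalase, encoded by Cat, splits hydrogen peroxide with no thiol, and it is abundant in red cells, as are Prdx2 and Gpx1. Several of these genes are known targets of the transcription factor NRF2, which binds antioxidant response elements.

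The core of the antioxidant response element was searched for in promoters because Gclm, Srxn1 and Prdx1 are textbook NRF2 targets. The letters were TGACNNNGC and, for the other strand, GCNNNGTCA. Other spellings of the element were not searched for, so a window may hold some that are not marked. The promoter windows are those of RefSeq on build GRCm38.p6, from 250 bases before to 50 bases after a gene's start, and 8 of the 10 genes have a window; Gclc and Prdx6 were not searched. The motif was found in 3 of the 8 genes (37.5%), against 14% of all 27025 genes with a window and 12.4% of all 32851 windows. Those 3 are the known targets for which the search was made, so the share is no result about the list. A match is a description of these letters and not a binding site. In Gclm the match GCACCGTCA begins at position -134 from the start, within chr3:122245307-122245556 on the plus strand, and in Prdx1 the match GCTGAGTCA begins at position -133, within chr4:116685349-116685598 on the plus strand. In Srxn1 the match GCTAGGTCA begins at base 29 of the transcribed side, and the stretch shown is chr2:152105542-152105571 on the plus strand. Capitals mark the match, and the first 2 sequences are the 250 bases before the start:
Gclm: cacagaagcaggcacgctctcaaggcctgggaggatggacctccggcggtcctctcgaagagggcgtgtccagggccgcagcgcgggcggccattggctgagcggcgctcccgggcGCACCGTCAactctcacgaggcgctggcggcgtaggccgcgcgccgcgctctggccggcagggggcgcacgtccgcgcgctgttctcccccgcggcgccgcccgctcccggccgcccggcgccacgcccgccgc
Prdx1: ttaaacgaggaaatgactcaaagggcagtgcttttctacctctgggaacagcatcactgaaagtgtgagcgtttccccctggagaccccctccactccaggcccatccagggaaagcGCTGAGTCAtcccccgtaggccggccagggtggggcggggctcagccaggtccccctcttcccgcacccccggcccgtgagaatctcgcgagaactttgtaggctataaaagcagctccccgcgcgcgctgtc
Srxn1: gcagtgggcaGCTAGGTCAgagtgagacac

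Several features of the whole series bear on these genes. All mice labelled male were on slide 1 and all labelled female on slide 2, so sex label and slide cannot be told apart. The Y-linked genes Eif2s3y and Ddx3y were well above background on 6 of 6 arrays labelled female and on 0 of 8 labelled male, and Xist on 0 of 6 and 5 of 8, so the arrays go against their sex labels. On both slides SI mice lay in array columns 1 or 2 and SS mice in columns 3 and 4, so stress group and column cannot be told apart either. Mouse 4, an SI mouse labelled male, was the dimmest array of its slide, with a median log2 signal of 6.75 against 7.25 to 8.61 for the others, and it correlated with mouse 7 of its group at 0.833 across probes, while pairs within the other groups reached 0.927 to 0.989.

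Over both slides, 6 of the 10 genes were higher in SS mice: both subunits of glutamate-cysteine ligase, Prdx6, Srxn1, Gpx4 and Cat. Their signals were between 1.76-fold and 2.84-fold those of SI mice. None of the 10 was lower past the threshold, and Prdx1, Prdx2, Prdx5 and Gpx1 had negative differences that did not pass. The threshold was an adjusted p of 0.05 in limma, with slide as a term, and the background is that 7.41% of all tested probes were higher and 0.57% lower in SS. Background shares count every tested probe, while each of the 10 genes stands by its brightest. The median difference of the 10 genes was 0.96 on the log2 scale, and the median of all tested probes was -0.04. In 4 of the 10 genes (Gclc, Prdx6, Srxn1 and Gpx4) every SS mouse lay above every SI mouse on each slide, as did 5.12% of all tested probes. The 10 genes were chosen with earlier results of these data known, so these counts and medians are descriptions and no test of the set. RNA was taken from bulk cells, so a change in the number of cells of one type and a change in RNA per cell cannot be told apart.

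**Figure D1:**
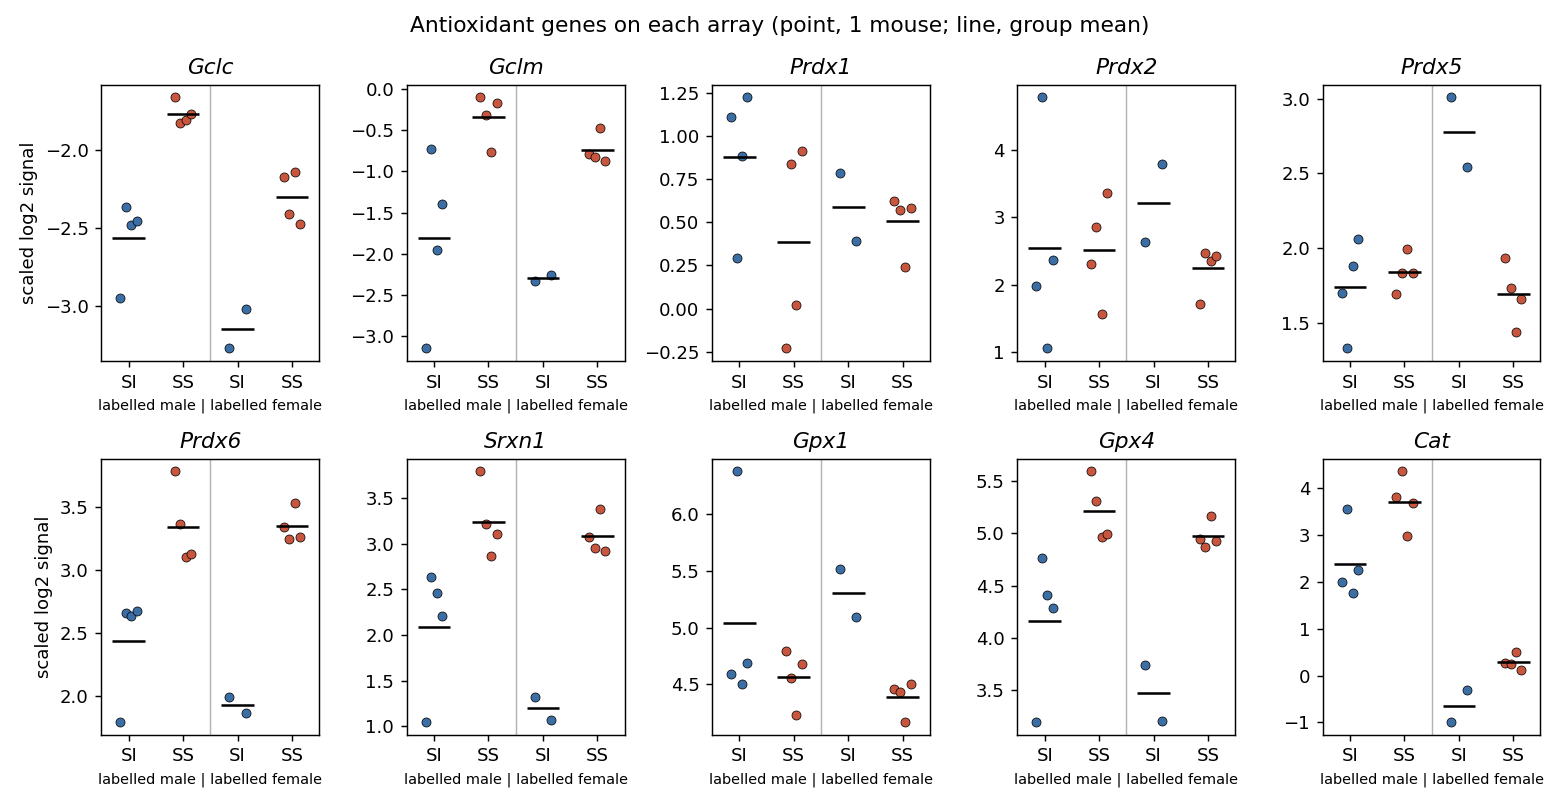
Scaled log2 signal of the 10 genes, 1 panel per gene and 1 point per mouse, with a line at each group mean; blue points are SI and red points SS mice, and the vertical line parts the slide of mice labelled male (left) from that of mice labelled female (right). The red points lie above the blue ones on both slides in Gclc, Prdx6, Srxn1 and Gpx4; in Gclm and Cat they overlap on the slide of labelled males, and in Prdx5, Prdx2 and Gpx1 the 2 SI mice labelled female lie above the 4 SS mice.

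Values below are scaled log2 signals, the log2 fluorescence of a probe minus the 75th percentile of the detected probes of the same array. They compare 1 probe between mice and set no gene's level against another's. In the lists of mice, SI labelled males are mice 6, 4, 7 and 5, SS labelled males mice 1, 2, 3 and 01b, SI labelled females mice 27 and 28, and SS labelled females mice 22, 20, 23 and 21.

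The catalytic subunit Gclc stood at -2.95, -2.36, -2.48 and -2.45 in SI labelled males and at -1.66, -1.83, -1.81 and -1.77 in SS labelled males. On the other slide it stood at -3.27 and -3.02 in SI and at -2.17, -2.41, -2.14 and -2.48 in SS mice. The groups did not overlap on either slide, and the SS labelled males lay close together, with an SD of 0.07 (n = 4). Over both slides the SS minus SI difference was 0.82 ± 0.14 (SE) on the log2 scale, a fold of 1.76, with an adjusted p of 0.00471 in limma. With another background correction (normexp) the difference was 0.54, still past the threshold.

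The modifier subunit Gclm varied more among SI labelled males, at -3.15, -0.72, -1.96 and -1.40, than among SS labelled males, at -0.10, -0.31, -0.76 and -0.17. Among labelled females it stood at -2.33 and -2.25 in SI and at -0.79, -0.82, -0.47 and -0.87 in SS mice. Mouse 4 was the SI labelled male with the highest Gclm and lay just above SS mouse 3, so the groups overlapped on that slide by this pair of mice and did not overlap on the other. The difference over both slides was 1.5 ± 0.30 (SE), a fold of 2.84 (limma adjusted p = 0.00575), and in the authors' deposited value table it was 3.15. Both subunits of the enzyme thus passed in the same direction over both slides.

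Of the 4 peroxiredoxins, only Prdx6 passed over both slides. Prdx6, which draws on glutathione, stood at 1.79, 2.66, 2.63 and 2.67 in SI and at 3.78, 3.36, 3.1 and 3.12 in SS labelled males. In labelled females it stood at 1.99 and 1.86 in SI and at 3.34, 3.25, 3.53 and 3.26 in SS mice. The lowest SS mouse of each slide lay above the highest SI mouse, and SI mouse 6 lay well below the other SI labelled males. The difference was 1.11 ± 0.19 (SE), a fold of 2.16 (limma adjusted p = 0.00471). Other probes for Prdx6 gave 1.09 and 1.14, each with an adjusted p of 0.00471, and a further probe was well above background on 0 of 14 arrays and was not tested.

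Srxn1, which repairs over-oxidised peroxiredoxins, stood at 1.05, 2.64, 2.46 and 2.21 in SI and at 3.79, 3.21, 2.86 and 3.1 in SS labelled males. On slide 2, of labelled females, it stood at 1.32 and 1.07 in SI and at 3.07, 2.95, 3.38 and 2.92 in SS mice. The groups did not overlap on either slide; SI mouse 4 came nearest to the SS mice, just below mouse 3. The difference was 1.45 ± 0.26 (SE), a fold of 2.72 (limma adjusted p = 0.00474). In the authors' deposited value table the differences of Prdx6 and Srxn1 were 0.54 and 0.74, both past the threshold.

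Prdx1, a cytosolic peroxiredoxin that thioredoxin restores, stood at 1.11, 0.29, 0.88 and 1.22 in SI and at -0.23, 0.84, 0.02 and 0.92 in SS labelled males. In labelled females it stood at 0.79 and 0.39 in SI and at 0.63, 0.57, 0.24 and 0.58 in SS mice. The groups overlapped on both slides. The difference was -0.33 ± 0.23 (SE), with a 95% confidence interval from -0.81 to 0.16 (limma adjusted p = 0.434), so a fall of that depth or a slight rise is within the error. A dimmer probe for Prdx1, well above background on 13 of 14 arrays, gave 0.08 ± 0.22 (SE).

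Prdx2, the peroxiredoxin abundant in red cells, had the widest spread of the 10 genes among SI labelled males, at 1.98, 4.78, 1.06 and 2.36 (SD 1.59, n = 4). SS labelled males stood at 2.31, 2.86, 1.57 and 3.36. SI labelled females stood at 2.64 and 3.79 and SS labelled females at 1.73, 2.47, 2.35 and 2.43. Mouse 4 was far above the rest of its group, and the groups overlapped on the slide of labelled males but not on the other, where SS mice were lower. The difference over both slides was -0.40 ± 0.50 (SE), with an interval from -1.47 to 0.67 (limma adjusted p = 0.675), so neither a clear rise nor a clear fall can be read from it.

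Prdx5, found in mitochondria, peroxisomes and cytosol, stood at 1.70, 1.33, 1.88 and 2.06 in SI and at 1.70, 1.83, 2.00 and 1.83 in SS labelled males, which overlap almost fully. On slide 2, of labelled females, it stood at 3.01 and 2.54 in SI and at 1.93, 1.73, 1.44 and 1.66 in SS mice. There every SS mouse lay below both SI mice. Over both slides the difference was -0.38 ± 0.22 (SE), with an interval from -0.84 to 0.09 (limma adjusted p = 0.361).

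Of the glutathione peroxidases, Gpx4 passed and Gpx1 did not. Gpx4 stood at 3.20, 4.77, 4.42 and 4.29 in SI and at 5.59, 5.31, 4.96 and 5.00 in SS labelled males. In labelled females it stood at 3.75 and 3.21 in SI and at 4.94, 4.87, 5.17 and 4.93 in SS mice. No SI mouse reached the SS mice of its slide, and SI mouse 6 was the lowest of the labelled males, as it was in Gclc, Gclm, Prdx6 and Srxn1. The difference was 1.23 ± 0.23 (SE), a fold of 2.34 (limma adjusted p = 0.00510), and 0.72 in the authors' deposited value table.

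Gpx1 stood at 4.59, 6.38, 4.50 and 4.69 in SI and at 4.79, 4.56, 4.23 and 4.68 in SS labelled males. On slide 2, of labelled females, it stood at 5.52 and 5.09 in SI and at 4.46, 4.43, 4.17 and 4.50 in SS mice. As in Prdx2, mouse 4 stood far above the other SI labelled males, and the SS labelled females were all below both SI labelled females. The difference was -0.65 ± 0.27 (SE), with an interval from -1.23 to -0.07 before adjustment and an adjusted p of 0.188 in limma. In labelled males it was -0.47, and without mouse 4 it was -0.03.

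Catalase stood at 1.98, 3.54, 1.75 and 2.24 in SI and at 3.79, 4.35, 2.98 and 3.68 in SS labelled males. In labelled females it stood at -0.99 and -0.30 in SI and at 0.26, 0.24, 0.51 and 0.12 in SS mice. Mouse 4 lay above SS mouse 3, so the groups overlapped on the slide of labelled males and were apart on the other. This probe was also lower on the whole slide of labelled females, with group means of -0.65 (SI) and 0.28 (SS) against 2.38 and 3.70 on the slide of labelled males. The SS minus SI difference was 1.16 ± 0.29 (SE), a fold of 2.24 (limma adjusted p = 0.0201).

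The second Cat probe did not pass, at 0.49 ± 0.28 (SE, limma adjusted p = 0.349). On it the SS labelled males lay between -1.70 and -0.65, within the range of the SI labelled males, -1.85 to -0.26. The upper end of that SI range was mouse 4, and SI mice 6, 7 and 5 stood at -1.77, -1.85 and -1.61. In labelled females the SS mice (-1.25 to -1.03) lay above both SI mice (-2.47 and -1.79). The difference there was 0.99 ± 0.42 (SE) without passing (limma adjusted p = 0.260). Group means of this probe were -2.13 (SI) and -1.14 (SS) on the slide of labelled females and -1.37 and -1.21 on the other slide. The SS means were thus near each other and the SI mean was lower in labelled females, while the brighter probe was lower there in both groups. The call for Cat was lost without SI mouse 6 (1.08, adjusted p = 0.0504), without SI mouse 27 (1.11, adjusted p = 0.0627), with no filter on dim probes (adjusted p = 0.0645) and with the mean of both probes (0.83, adjusted p = 0.0565). The calls of Gclc, Gclm, Prdx6, Srxn1 and Gpx4 were kept in 24 of 24 alternatives.

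The differences of the 6 genes were also above 0 on each slide alone. For Cat in labelled females the 95% confidence interval spanned 0, from -0.07 to 1.93. On the slide of labelled males, Gclc differed by 0.79 ± 0.18 (SE), Gclm by 1.47 ± 0.39, Prdx6 by 0.90 ± 0.24, Srxn1 by 1.15 ± 0.32, Gpx4 by 1.05 ± 0.30 and Cat by 1.32 ± 0.38. None of the 10 genes passed there, with limma adjusted p of 0.0847 to 0.0850 for these 6. No probe of the 24045 did (0%), although 23.8% of them, and these 6 genes, had an unadjusted p under 0.05. Without mouse 4 all 6 genes passed on this slide, at 0.86 for Gclc, 1.83 for Gclm, 0.98 for Prdx6, 1.34 for Srxn1, 1.25 for Gpx4 and 1.71 for Cat (limma adjusted p between 0.0143 and 0.0161), and so did 9439 probes. The background in that fit was 22.1% of the 24045 probes higher and 17.2% lower. The other 4 genes differed by -0.49 (Prdx1), -0.02 (Prdx2), 0.10 (Prdx5) and -0.47 (Gpx1), and Prdx2 turned to 0.72 without mouse 4.

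On the slide of labelled females, Prdx6, Srxn1 and Gpx4 were higher and Prdx5 was lower in SS mice. Prdx6 differed by 1.42 ± 0.29 (SE, limma adjusted p = 0.0256), Srxn1 by 1.88 ± 0.39 (adjusted p = 0.0277) and Gpx4 by 1.5 ± 0.37 (adjusted p = 0.0411). Prdx5 differed by -1.08 ± 0.25 (adjusted p = 0.0351), so SI labelled females had 2.12-fold the signal of SS labelled females. The background is 3.19% of tested probes higher and 0.815% lower. Gclc (0.85 ± 0.22, adjusted p = 0.0534) and Gclm (1.56 ± 0.48, adjusted p = 0.0955) did not pass, nor did Cat (0.93), Gpx1 (-0.92), Prdx2 (-0.97) and Prdx1 (-0.08), and the 10 genes had a median of 0.89 against -0.11 for all probes. In the deposited table the differences were 0.67 for Prdx6, 0.93 for Srxn1, 0.89 for Gpx4 and -0.61 for Prdx5, and none of the 4 passed. These 4 calls rest on 2 SI mice: each of them was lost when any 1 of the 6 arrays of this slide was left out, with adjusted p up to 0.25.

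The fit shares its estimate of spread over both slides, so mouse 4 also enters the calls on the slide of labelled females. Without it, 5 genes were higher there, with Gclc (adjusted p = 0.0250) and Gclm (adjusted p = 0.0282) added, and 2 lower, with Gpx1 (adjusted p = 0.0225) beside Prdx5. The background rose as well, to 5.5% of probes higher and 2.48% lower. Gclc (adjusted p = 0.0252) and Gclm (adjusted p = 0.0128) also passed there without SI mouse 6, with 4.67% of all probes higher and 0.944% lower in that fit. Single labelled males also ended the call of Gpx4 when left out (SI mice 7 and 5, SS mice 2 and 01b, adjusted p from 0.0513 to 0.0629) or that of Prdx5 (SS mice 2 and 01b, 0.0559 and 0.0560). The differences themselves do not move in these fits, since the slide of labelled females keeps its arrays.

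**Figure D2:**
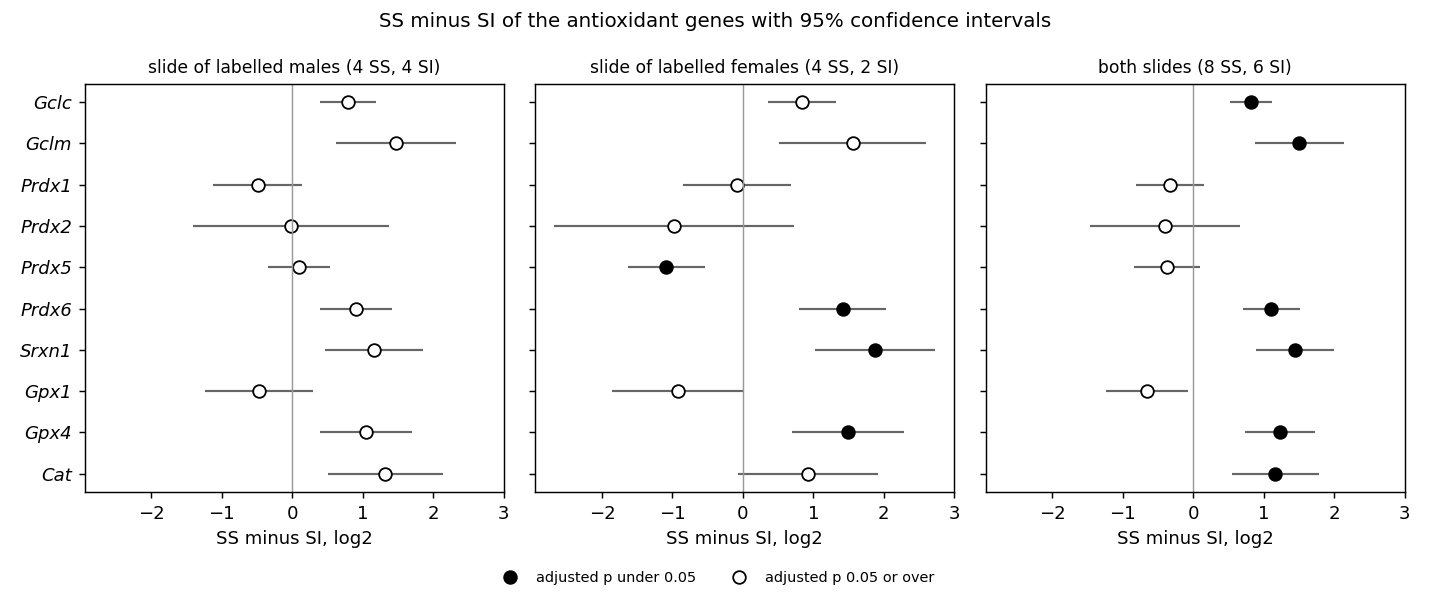
SS minus SI of the 10 genes in log2 units with 95% confidence intervals, on the slide of labelled males (left), the slide of labelled females (centre) and over both slides (right); filled points have an adjusted p under 0.05. The points of the same 6 genes lie right of 0 in all 3 panels, though the interval of Cat spans 0 in labelled females. Prdx5 lies near 0 in labelled males (0.10) and at -1.08 in labelled females.

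No gene of the 10 passed the test of the difference between the slides, which 0.0457% of probes (11 of 24045) passed. Prdx5 was nearest to it, at -1.18 ± 0.33 (SE, labelled females minus labelled males) with an adjusted p of 0.244 in limma and an unadjusted p of 0.00302. Its adjusted p lay between 0.0546 and 0.614 over the 24 alternatives. The intervals of the 6 genes that passed over both slides span 0 and are wide, for example from -0.37 to 1.83 for Srxn1 and from -0.57 to 0.68 for Gclc, so the slides were not shown to differ and were not shown to be alike.

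Markers of other blood cells moved with several of these genes. Of 16 platelet markers, all measured, 15 were higher in SS mice over both slides (Selp did not pass, at 0.74 with an adjusted p of 0.117 in limma) and 11 on the slide of labelled females, with a median difference of 1.55 over both. Over both slides 15 to 16 were called under 23 alternatives, while on the slide of labelled females the count ran from 0 to 15. Ppbp and Pf4, chemokines of platelet granules and the brightest of the list, differed by 1.31 ± 0.26 and 1.43 ± 0.25 (SE, limma adjusted p = 0.00602 and 0.00471). The summed signal of the list, as log2, lay between 6.87 and 8.87 in SI and between 8.89 and 9.70 in SS labelled males, and between 7.19 and 7.55 in SI and between 9.0 and 9.31 in SS labelled females. SI and SS mice thus did not overlap in platelet marker signal on either slide, as they did not in Gclc, Prdx6, Srxn1 and Gpx4. The part of these markers in the differences of the 6 genes was not tested.

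Most neutrophil markers, like Prdx5, were lower in SS than in SI mice on the slide of labelled females. Of 15 listed, 13 were measured, Ly6g had no probe and Mpo was not tested for low signal; 8 were lower in SS mice on the slide of labelled females, where their median difference was -2.23, and none passed on the slide of labelled males, where it was 0.30. S100a9 and S100a8, calcium-binding proteins abundant in neutrophils, differed by -1.39 and -2.23 in labelled females (limma adjusted p = 0.0234 and 0.0173). The call of S100a9 held under 14 of 24 alternatives only, with differences down to -0.31 and adjusted p up to 0.709, and that of S100a8 under 20. Over the 24 alternatives the count lower in labelled females ran from 2, without SI mouse 28, to 11, without mouse 4. Over both slides it was 0, and 5 without mouse 4, a fit in which 6.01% of all probes were lower. The summed signal of the list lay between 8.93 and 9.53 in SI and between 7.27 and 7.59 in SS labelled females, and between 7.39 and 8.02 and between 8.01 and 8.17 in SI and SS labelled males. SI labelled females therefore had both the highest neutrophil marker signal and the highest Prdx5. Between these 2 mice the order was reversed. Mouse 27 had a Prdx5 of 3.01 and a neutrophil signal of 8.93, and mouse 28 had 2.54 and 9.53. Mouse 27 also had the highest summed monocyte marker signal of all mice, 5.54, while mouse 28 had 4.36. These 2 mice had the highest summed NK cell marker signals of all mice as well, 4.23 in mouse 27 and 4.33 in mouse 28. Their summed red cell marker signals, 10.62 and 11.34, lay above those of the SS labelled females (9.51 to 10.43). What part these marker signals have in Prdx5 was not tested.

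Mouse 4, which stood apart in Prdx2 and Gpx1, also stood apart in red cell markers. Of 17 listed, 12 were measured (Hbb-bs and Ahsp had no probe, and Epb42, Klf1 and Xk were too dim) and 1, the spectrin gene Sptb, was higher in SS mice over both slides, at 1.41 ± 0.34 (SE, limma adjusted p = 0.0183). Sptb went against its list, whose median difference was -0.69 over both slides and -1.37 in labelled females, and its call held under 19 of 22 alternatives (lost with normexp, with no filter on dim probes and without SI mouse 28). The summed signal lay between 9.41 and 11.66 in SI and between 9.87 and 11.05 in SS labelled males, and between 10.62 and 11.34 in SI and between 9.51 and 10.43 in SS labelled females. Mouse 4, with the highest Prdx2 and Gpx1 of all 14 mice, also had the highest red cell signal, 11.66, and its part was not tested. The brightest genes of the list, the globins Hba-a1 and Hba-a2, differed by -0.09 and 0.00 over both slides.

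Markers that define PBMC were present. None of the measured T cell (11 of 11 listed), B cell (9 of 10), NK cell (7 of 9) or monocyte (7 of 8) markers passed in any of the 3 comparisons. Their medians over both slides were -0.64, 0.02, -0.61 and -0.29. In the same order they were -0.98, -0.47, -0.14 and 0.03 in labelled males and -0.41, 0.68, -1.10 and -0.72 in labelled females. In labelled females the summed NK cell signal lay between 4.23 and 4.33 in SI and between 2.22 and 3.27 in SS mice, without overlap. The summed B cell signal there lay between 3.82 and 4.81 in SI and between 4.85 and 5.26 in SS mice. In labelled males both signals overlapped. Of the brightest, Ccr7 and Cd3e of T cells differed by -0.39 and -0.31, Cd79b and Ms4a1 of B cells by -0.18 and 0.02, Gzma and Nkg7 of NK cells by -0.85 and -0.35, and Csf1r and Lyz2 of monocytes by -0.63 and 0.22. Some alternatives gave calls: over both slides 1 monocyte marker was lower without mouse 4 and 1 NK cell marker without SI mouse 5, and in labelled females 1 NK cell marker was lower in the deposited table and 2 with the arrays of that slide alone.

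**Figure D3:**
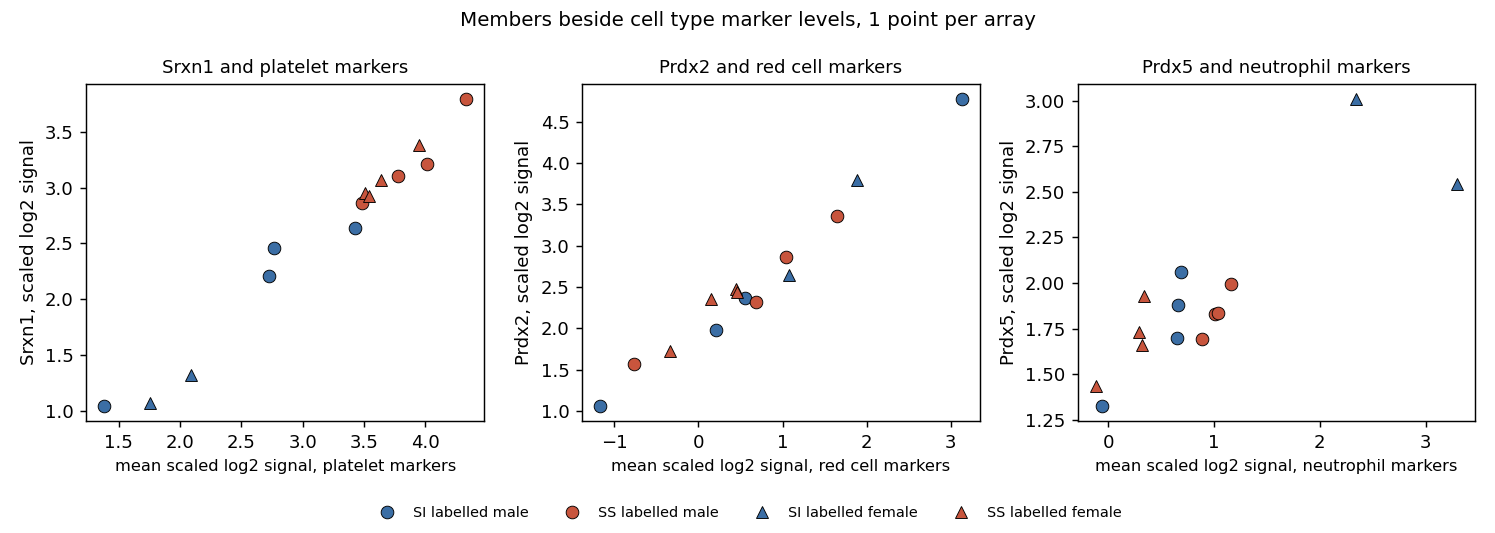
Scaled log2 signal of Srxn1, Prdx2 and Prdx5 (vertical) against the mean scaled log2 signal of platelet, red cell and neutrophil markers (horizontal), 1 point per array; blue is SI, red is SS, circles are labelled males and triangles labelled females. Srxn1 rises with the platelet markers over both groups and slides, Prdx2 with the red cell markers up to mouse 4 at the top right, and the 2 SI labelled females stand apart at the right in Prdx5.

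The other genes of glutathione and thioredoxin chemistry were taken as 7 lists. In the list of glutathione synthesis, recycling and breakdown, 9 of 13 genes were measured; 2 were higher, none was lower, and the median difference over both slides was -0.28. Gsr, which regenerates reduced glutathione, differed by 0.83 ± 0.18 (SE, limma adjusted p = 0.0101), and Chac2, which degrades glutathione, by 1.22 ± 0.29 (adjusted p = 0.0166). In labelled females 1 gene was lower, the glutaredoxin Glrx, at -1.40 ± 0.26 (adjusted p = 0.0209).

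Superoxide dismutases, which make the hydrogen peroxide that these enzymes remove, went opposite ways. Cytosolic Sod1 was higher in SS mice by 0.86 ± 0.17 (SE, limma adjusted p = 0.00546), and mitochondrial Sod2 was lower, at -0.67 ± 0.15 (adjusted p = 0.0102). They were the 2 called genes among 4 measured of 8 listed other peroxiredoxins, glutathione peroxidases and superoxide dismutases, a list with a median of 0.27. In the thioredoxin system, 1 of 12 genes was higher and none lower, with a median of -0.32: Msrb2, a mitochondrial methionine sulfoxide reductase, differed by 1.00 ± 0.17 (adjusted p = 0.00471), and mitochondrial thioredoxin reductase Txnrd2 by -0.62 ± 0.18 without passing (adjusted p = 0.0520).

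Glutathione S-transferases, which join glutathione to other molecules, had 2 genes higher and none lower of 12 measured (13 listed), with a median of -0.08. Gstt1 differed by 1.51 ± 0.27 (SE, limma adjusted p = 0.00471) and Gstk1 by 0.46 ± 0.13 (adjusted p = 0.0456). In labelled females Gstt1 was higher (1.71, adjusted p = 0.0451) and 2 microsomal transferases were lower, Mgst1 at -1.82 (adjusted p = 0.0265) and Mgst2 at -2.01 (adjusted p = 0.0386). That slide thus had called genes in both directions within the family, beside a list median of -0.36. The calls of Gstt1, Mgst1 and Mgst2 on that slide held under 9, 16 and 11 of 24 alternatives, that of Glrx under 16 and that of Msrb2, at 1.15 there, under 11.

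NRF2 and its regulators had 1 gene higher and none lower of 9 measured (11 listed), with a median of -0.05. The called gene was Nfe2, a relative of NRF2 known from megakaryocytes and red cell precursors, at 1.04 ± 0.21 (SE, limma adjusted p = 0.00671); its partner Mafg differed by 0.45 ± 0.17 without passing (adjusted p = 0.153). Among 12 other NRF2 targets, all measured, 2 were higher and none was lower, with a median of -0.10. Those were Aldh2, an aldehyde dehydrogenase, at 1.24 ± 0.22 (adjusted p = 0.00471), and Fth1, the ferritin heavy chain that stores iron, at 0.67 ± 0.16 (adjusted p = 0.0193).

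Enzymes that supply NADPH, the reductant behind glutathione and thioredoxin, had 1 gene higher and none lower of 6 measured (7 listed), with a median of 0.07. Taldo1, of the pentose phosphate pathway, differed by 0.70 ± 0.19 (SE, limma adjusted p = 0.0341). Tkt, of the same pathway, differed by -0.43 ± 0.19 (adjusted p = 0.225) over both slides and was lower on the slide of labelled females, at -1.01 ± 0.24 (adjusted p = 0.0371, held under 9 of 24 alternatives). Each listed gene stands by its brightest tested probe, while the shares of all probes count every tested probe. Of the 64 measured genes of these 7 lists, 10 were higher over both slides (15.6%, and 8.33% to 25% by list) and 1, Sod2, was lower (1.56%), beside 7.41% and 0.57% of all probes. Without mouse 4 more were lower: 5 in the thioredoxin system, 2 among glutathione S-transferases, 2 among other NRF2 targets, 1 in glutathione synthesis and 1 in NADPH supply. The background rose too in that fit, to 6.01% of all probes lower and 10% higher over both slides. The calls of Sod1, Msrb2, Gstt1, Nfe2 and Aldh2 over both slides held under 23 of 23 alternatives, those of Gsr and Sod2 under 22, Chac2 under 19 and Fth1 under 18. Those of Taldo1 and Gstk1 held under 8 and 6 of 23 only and were lost with several single mice left out.

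**Figure D4:**
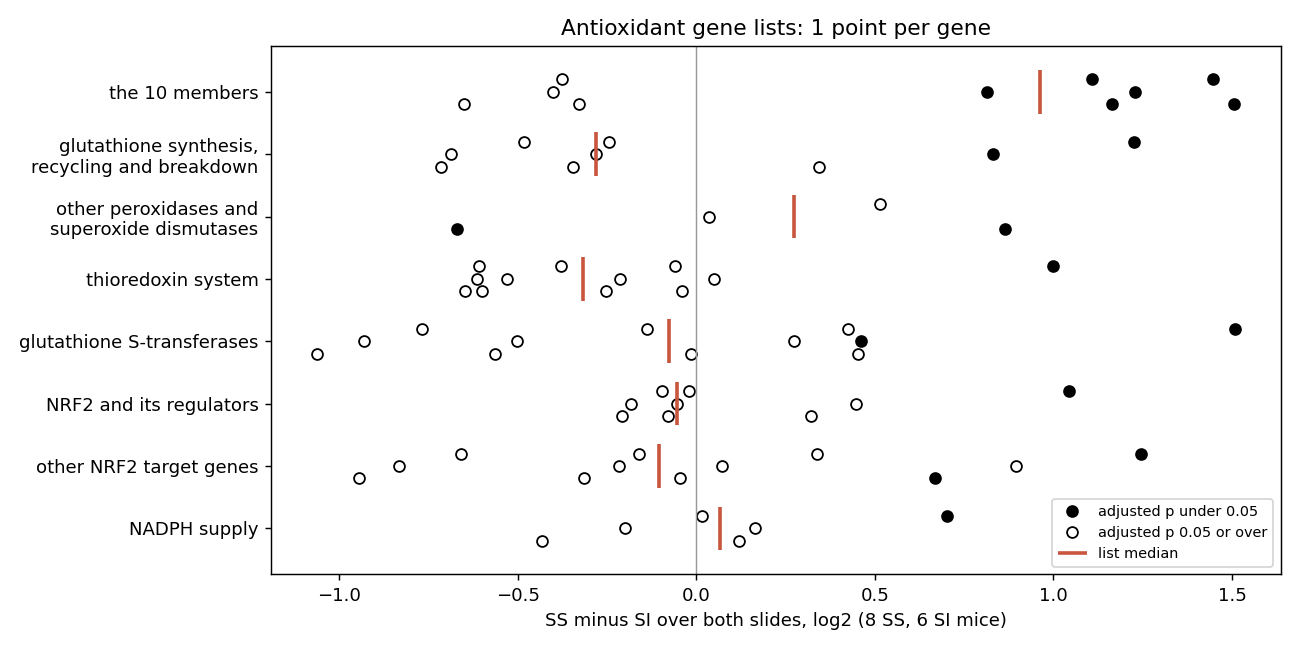
SS minus SI over both slides in log2 units (8 SS and 6 SI mice) for each measured gene of the 10 described and of 7 other antioxidant lists, with 1 point per gene and a red bar at each list's median; filled points have an adjusted p under 0.05. The 10 genes have a median of 0.96, and the medians of the other lists lie between -0.32 and 0.27. The 10 genes and the lists were chosen with earlier results of these data known.

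Among themselves, the 6 genes higher over both slides followed one another. Across the 14 arrays, with each slide's mean removed and the SS and SI difference left in, Prdx6, Srxn1 and Gpx4 correlated with one another at 0.977 to 0.99, and Gclc and Gclm with each of them at 0.92 to 0.948. Cat followed them less closely, at 0.743 to 0.767 with Prdx6, Srxn1 and Gpx4, and at 0.869 with Gclm. Prdx2 and Gpx1 correlated at 0.764 with each other. Prdx1 and Prdx5 ran against the 6 genes, Prdx1 at -0.514 to -0.465 and Prdx5 at -0.606 to -0.495, and correlated at 0.269 with each other. These points share slide, group and array brightness, and the coefficients are descriptions.

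The most similar other genes, by the same coefficient over 14 arrays, were as follows. Nearest to Gclc were Rbm38 (0.982), Pitpnm2 and Prkcq, and nearest to Gclm were Serpinb2 (0.991), F2rl2 and Odc1. Prdx6 was nearest to Bin1 (0.997), Cd81 and Yaf2, Srxn1 to Ttll11 (0.997), Grk5 and Gp6, and Gpx4 to Cd151 (0.997), Gas2l1 and Rnasek. Gp6, the platelet collagen receptor, is also in the platelet list. All 15 of these genes were higher in SS mice over both slides; a close match to a gene that differs between the groups will differ too, so this count is no separate result.

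Cat was nearest to E330020D12Rik (0.987), Fam107a and Pdzrn3, of which the first and second passed over both slides at 1.22 and 1.10 and Pdzrn3 did not at 1.05 (limma adjusted p = 0.0582). Prdx1 was nearest to Mrc1 (0.967), Axl and Vat1, and Mrc1 and Axl are known from macrophages. Prdx2 was nearest to Pabpc4 (0.987), Slc6a9 and Nipa1, and Gpx1 to Mpp1 (0.972), Epn1 and Ypel3. Prdx5 was nearest to Mgst1 (0.968), Slc7a7 and Tkt, of which Mgst1 and Tkt were also lower in SS labelled females, as given above. None of the genes nearest to Prdx1, Prdx2, Prdx5 or Gpx1 passed over both slides. A close match follows its gene here too, so neither this count nor the lower Mgst1 and Tkt is a separate result.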

How the data were processed

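The deposited scanner files give a processed intensity, a spot intensity and a local background intensity for each spot, per the file headers. Agilent Feature Extraction had subtracted background and corrected for spatial trends (version 10.7.3.1 in the headers, 9.1 in the submitters' processing notes). Flag columns, held as score values of 0 or 1 per the file headers, mark control, detected, saturated and outlier spots. The authors deposited a log2 value table as well, with 27990 probes (27879 non-control), column medians of 7.21 to 7.74 and the same highest value in each column; how it was normalized is unknown here.

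From 62976 spots per array, 3671 control spots were dropped. Outlier spots, 113 to 174 per array, were dropped only where their probe had an unflagged spot left. No spot was saturated. Log2 processed intensities of replicate spots were averaged into 55681 probes. Detection (34.8% to 47.7% of spots well above background) and the number of arrays limit the precision. Scaling subtracted each array's 75th percentile over 14526 probes detected on 14 of 14 arrays. Probes detected on at least 6 arrays were tested. Symbols were matched by RefSeq accession (26425 of 31063 probes); the arrays' own build is older than that table, so probe positions are left out. Fits used limma 3.58.1 (R 4.3.3, data.table version 1.17.8): one with 4 groups for each slide and for the difference between slides, one with stress and slide for both. Tests were two-sided, with p values adjusted (Benjamini-Hochberg, 0.05) over the whole set of 24045 probes. The code was tested on simulated data.

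Groups follow the labels. Named were the 10 genes, the 2 genes of lowest p over both slides in each other antioxidant list, the 2 brightest of each cell type list and the 3 genes most like each of the 10; Glrx, Mgst1, Mgst2, Selp and Sptb were added after their values were seen. Alternatives covered scaling, background correction, dim-probe filters, outlier spots, probe choice, the deposited table, array row and each array left out. The 10 genes and the lists were chosen with earlier results of these data known.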

Additional observations from a re-analysis of the deposited data

Results flagged for a closer look

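Within each group of 4 mice, single mice that stood far from the others of their group, relative to the range of the group, were looked for in the 10 genes. Of 30 groups of values tested, 4 had such a mouse, where chance gives about 1 in 20. The 10 genes share the same mice and several of them correlate closely, so the 30 groups are not independent. Whether 4 is more than chance gives therefore cannot be judged. Prdx6 was low in SI labelled male mouse 6, at 1.79 with the nearest mouse at 2.63. Gpx1 was high in SI labelled male mouse 4, at 6.38 with the nearest at 4.69. Prdx1 was low in SS labelled female mouse 23, at 0.24 with the nearest at 0.57, and Prdx2 was low in SS labelled female mouse 22, at 1.73 with the nearest at 2.35. The difference of Prdx6 over both slides kept its call without mouse 6, and those of Gpx1, Prdx1 and Prdx2 passed neither with nor without these mice.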

How the results depend on the processing

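Over both slides the calls of Gclc, Gclm, Prdx6, Srxn1 and Gpx4 were kept under 24 of 24 alternatives and that of Cat under 20; the number of genes of the 10 called higher was 5 to 6 when 1 array was left out. Over all probes 1919 passed, against 1244 with normexp, 1127 with no filter on dim probes and 1491 to 3857 without 1 array, the last without SI mouse 4. On the slide of labelled males 0 probes passed, against 2 with the 75th percentile over all probes, 1 with median scaling, 2 with quantile normalization, 168 in the authors' deposited table (with 1 gene, Gclc, at 1.25) and 0 to 9439 without 1 array (0 to 6 genes higher). On the slide of labelled females 963 passed, against 414 with normexp, 52 with no filter (18 higher and 34 lower, against 767 and 196), 472 in the deposited table, 544 with array row as a term, 1705 with the arrays of that slide alone and 43 (without SS mouse 23) to 1920 without 1 array. There, 3 genes were higher, against 0 with no filter and in the deposited table, 5 with that slide alone and 0 to 5 without 1 array; and 1 was lower, against 0 with the percentile over all probes, quantile normalization, normexp, no filter, the deposited table and array row, 2 with that slide alone and 0 to 2 without 1 array. The difference between slides was passed by 11 probes, 1 higher and 10 lower, against 17 with quantile normalization (4 and 13), 31 in the deposited table and 1 to 663 without 1 array. The same alternatives were applied to the other antioxidant and cell type lists, a choice made after seeing the data, and no gene of those lists that had passed changed sign. Among the 10 genes, signs turned only in differences that had not passed. On the slide of labelled males Prdx5 was -0.081 with the percentile over all probes and -0.090 with quantile normalization (-0.042 to 0.20 without 1 array), and Prdx2 was 0.054 with median scaling (-0.52 to 0.72). On that of labelled females Prdx1 was 0.079 with the percentile over all probes (-0.28 to 0.12). Between slides, Gclc was -0.16 with normexp and -0.55 in the deposited table (-0.075 to 0.18), Gclm -0.15 with normexp (-0.27 to 0.53), and Cat 0.54 in the deposited table and 0.22 as the mean of its probes. The percentile over all probes moved the median of all probes from 0.09 to -0.09 in labelled males and from -0.11 to 0.05 in labelled females. The cause of these shifts was not tested; without an SI labelled female, the remaining one is assumed to vary like the other groups. No paired analysis was possible because the groups share no mouse numbers.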
